A study of Mus musculus with 8 samples.

Results

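Mepenzolate bromide was compared with vehicle in mouse lung 25 h after dosing. Of the 8 arrays of the series, the 4 taken at 25 h were chosen by their titles, 2 from mepenzolate lungs and 2 from vehicle lungs. Mice of both treatments and both times were under chloral hydrate anaesthesia (500 mg/kg). Mepenzolate was given in PBS into the trachea through a micropipette. The other 4 arrays, 2 per treatment at 7 h, entered the estimate of spread and served for comparison in time. The labels used here give no strain, age, sex or dose of mepenzolate, and they do not state whether paired arrays of a group stem from different mice. Every p-value therefore refers to the spread between these samples alone, part of which may be technical.

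Mepenzolate blocks muscarinic receptors, the G protein-coupled receptors for acetylcholine. In the airways, acetylcholine from vagal nerve endings contracts smooth muscle and drives mucus secretion through the M3 receptor, while M2 receptors on nerve endings restrain its release. Blockers of these receptors are used as bronchodilators in chronic obstructive pulmonary disease, a disease of airway inflammation, oxidant stress and loss of alveolar walls, and the series title places the compound in a mouse model of that disease.

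Each value is a log2 expression level of whole lung tissue, so equal steps stand for equal ratios. Of 19937 genes with a probe of their own, the 14953 with a mean at or above log2 5.93 were tested. Markers of lung were bright on all 4 arrays of 25 h. Sftpb, a surfactant protein of alveolar type 2 cells, read 12.80 and 12.76 after mepenzolate and 12.91 and 12.78 after vehicle, and Cdh5, the cadherin of endothelial junctions, read 12.34 and 12.33 against 12.35 and 12.41. Array medians in the series lay between 6.70 and 6.77. The difference between the 2 mepenzolate arrays had an SD of 0.202 over genes, and that between the 2 vehicle arrays an SD of 0.153. A gene that is lower in whole tissue may come from fewer cells of a type or from less RNA per cell, and these cannot be told apart here.

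No gene passed the test of mepenzolate against vehicle at 25 h, 0 of 14953 genes (0%) at an adjusted p under 0.05 by limma, a linear model with a moderated spread. The smallest adjusted p was 0.979. At an unadjusted p under 0.05 there were 230 genes higher (1.54%) and 369 lower (2.47%) after mepenzolate. That split turned with the scaling, to 359 higher and 243 lower after median centring of the arrays and 384 and 384 after quantile normalization. In 2124 genes (14.2%) both mepenzolate arrays lay above both vehicle arrays, and in 3343 genes (22.4%) both lay below. After median centring these counts were 2872 and 2451. Counted by the sign of the difference alone, whatever its size, 6170 genes (41.3%) stood higher and 8783 (58.7%) lower, and the counts of groups below are to be read against those shares. Every difference given here is therefore a description of 2 arrays against 2, with its moderated standard error after ±, and no gene is said to have risen or fallen.

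The differences were small. Their median size was 0.0752 and the 95th percentile was 0.247, and the median over all genes was -0.023. The half-width of a gene's 95% interval had a median of 0.229, and for 13298 genes the whole interval lay within 0.5 of zero on the log2 scale. Only 8 genes differed by more than 1, which were Gm14403, Slc37a1, Ang5, Ctse and H2-Eb1 on the higher side and H2-Ea, Gdpd3 and Tnnt2 on the lower. An exact permutation test of 2 arrays against 2 cannot give a p under 0.333.

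Among the genes higher after mepenzolate, Abcg3, a rodent member of the ABC transporter family, had the smallest unadjusted p. It read 7.24 and 7.18 in the mepenzolate arrays against 6.54 and 6.57 in the vehicle arrays, a difference of 0.66 ± 0.09. Both treated arrays lay clear of both vehicle arrays, and at 7 h the gene also stood higher, by 0.42 ± 0.09. Nudt21, a subunit of cleavage factor I that helps to choose the site where a transcript's poly(A) tail is added, read 8.64 and 8.68 against 8.20 and 8.13, a difference of 0.50 ± 0.08. Its partners in the same factor, Cpsf6 and Cpsf7, differed by 0.02 ± 0.09 and -0.04 ± 0.07. The probes of the 3 subunits thus did not share one difference. Nudt21 lies on chromosome 8, but its probe number falls between those of genes on chromosomes 2 and 3. Whether that probe also reads a copy elsewhere was not tested. Odc1, ornithine decarboxylase and the first step of polyamine synthesis, read 8.24 and 8.16 against 7.76 and 7.75, or 0.45 ± 0.10. Its probe number likewise falls among those of chromosome 8 genes, while Odc1 lies on chromosome 12, and the same limit holds. Of the other 11 polyamine genes, 5 stood higher and 6 lower. Among these, Sat1, which acetylates spermidine and spermine for export, stood higher by 0.18 ± 0.08 and Atp13a2, a lysosomal polyamine transporter, lower at -0.23 ± 0.08.

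Padi4, the peptidylarginine deiminase that citrullinates histones in neutrophils, read 7.03 and 6.44 after mepenzolate and 5.80 and 5.78 after vehicle, a difference of 0.94 ± 0.20. The treated arrays were spread over 0.59 and both lay above the vehicle arrays. The airway secretoglobin Scgb1c1 read 10.32 and 9.78 against 9.34 and 9.19 (0.78 ± 0.16), and Alpl, tissue-nonspecific alkaline phosphatase, 7.95 and 8.06 against 7.35 and 6.96 (0.85 ± 0.23). The cytoplasmic Y RNA gene Rny1 read 8.57 and 9.03 against 7.97 and 7.93 (0.85 ± 0.19). In these 3 genes the groups did not overlap either. The widest empty space between groups on the higher side belonged to Gm14403, a predicted gene, with 8.63 and 8.69 against 7.14 and 7.60, and Slc37a1, a sugar phosphate exchanger, came next with 9.38 and 9.74 against 8.61 and 8.51. At 7 h both of these genes varied widely, Slc37a1 reading 9.84 and 8.47 in the 2 mepenzolate arrays, and their standard errors were 0.43 and 0.36.

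On the lower side the smallest p belonged to Gbp4, a guanylate-binding protein, one of the GTPases that interferon induces in defence against intracellular microbes. It read 8.65 and 8.33 after mepenzolate and 9.52 and 9.38 after vehicle, a difference of -0.96 ± 0.16. The vehicle arrays were both higher by more than the distance within either pair, and the 7 h difference was 0.11 ± 0.16. Spon2, a secreted matrix protein that opsonises microbes, read 7.90 and 7.72 against 8.34 and 8.52 (-0.62 ± 0.11), and Sstr4, a somatostatin receptor, 7.68 and 7.97 against 8.31 and 8.73 (-0.69 ± 0.15). Tbx4, the transcription factor of lung mesenchyme, read 9.57 and 9.59 against 9.92 and 9.90 (-0.33 ± 0.07). In Tbx4 the replicates of each group lay close together and the groups well apart.

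Grin2c, an NMDA receptor subunit, read 6.99 and 6.98 against 7.48 and 7.50 (-0.50 ± 0.10), and Gaa, the lysosomal acid alpha-glucosidase, 8.75 and 8.85 against 9.32 and 9.33 (-0.52 ± 0.13). Sdhaf4, an assembly factor of succinate dehydrogenase, read 6.34 and 6.41 against 6.80 and 6.73 (-0.39 ± 0.08), whereas the 4 subunit genes of that enzyme differed by -0.02 to 0.09. Tnnt2, cardiac troponin T, read 10.64 and 10.09 against 11.26 and 11.65 (-1.09 ± 0.34). Other heart genes did not all go with it. Of 11 tested, Tnnt2 included, 5 stood higher and 6 lower, with a median of -0.024. Pln stood at -0.34 ± 0.24 and Nppa at 0.78 ± 0.43. Eya4, Mrap2, Cd300lg and St6galnac2 also had wide empty spaces between the groups, with differences of -0.88, -0.93, -0.60 and -0.61.

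**Figure D1:**
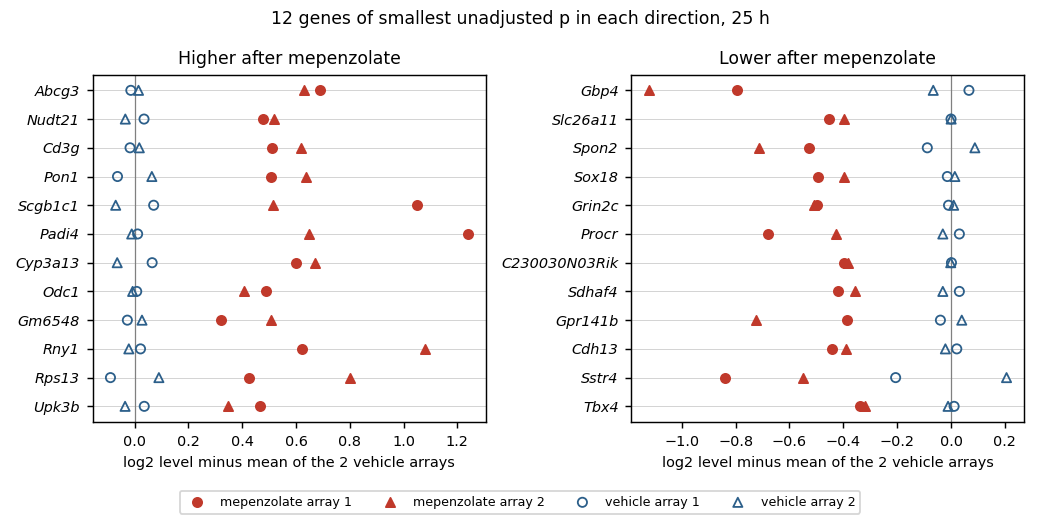
Levels of the 12 genes of smallest unadjusted p in each direction, per array, as log2 level minus the mean of the 2 vehicle arrays of that gene; filled red marks are mepenzolate arrays and open blue marks vehicle arrays, circles array 1 and triangles array 2. In each gene both red marks lie on one side of both blue marks, which the choice of genes required, and Padi4 and Scgb1c1 show wide spacing of the red marks.

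Genes of natural killer (NK) cells stood lower after mepenzolate. These lymphocytes kill infected or transformed cells by releasing perforin and granzymes, and the T-box factors Eomes and T-bet (Tbx21) set up that program. T-box factors bind DNA with the core GTGTGA, so the 100 bases upstream of the RefSeq transcription start are shown for the 3 NK genes in which this core was found, in capitals on either strand (TCACAC is its reverse complement).
Gzmb, chr14:56262335-56262434, minus strand: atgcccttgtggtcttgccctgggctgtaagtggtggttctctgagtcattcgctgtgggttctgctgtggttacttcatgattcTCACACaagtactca
Nkg7, chr7:43437038-43437137, plus strand: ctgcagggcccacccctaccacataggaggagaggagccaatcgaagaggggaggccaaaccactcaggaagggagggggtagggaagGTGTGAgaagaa
Ncr1, chr7:4337615-4337714, plus strand: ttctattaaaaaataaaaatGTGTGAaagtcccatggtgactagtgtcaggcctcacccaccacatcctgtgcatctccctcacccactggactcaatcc
The sequences are from RefSeq on GRCm38.p6. The core was searched on both strands in the 250 bases before the start. It was present in 3 of the 8 NK genes with an entry and in 12.2% of all 27025 genes with one, and a match describes letters only. Gzma, Prf1, Eomes, Klrb1c and Tbx21 had no match, and Klrd1 had no entry. A tie between a match and the difference at 25 h was not tested.

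The granule protease gene Gzma read 7.91 and 7.77 after mepenzolate against 8.60 and 8.50 after vehicle, a difference of -0.71 ± 0.18. Prf1, perforin, read 7.41 and 7.23 against 7.76 and 7.65 (-0.39 ± 0.13), and Nkg7, a granule membrane protein, 8.26 and 8.04 against 8.45 and 8.52 (-0.34 ± 0.14). In all 3 the groups were separate. The activating receptor gene Ncr1 read 7.30 and 6.74 against 7.51 and 7.46 (-0.46 ± 0.22), Klrd1, which pairs with NKG2 lectins in NK receptors, 6.74 and 6.59 against 6.97 and 6.86 (-0.25 ± 0.11), and Eomes 6.19 and 6.11 against 6.41 and 6.35 (-0.23 ± 0.09). In each of these genes the second mepenzolate array was the lowest of the 4. Gzmb was the exception to separation, its first mepenzolate array lying between the vehicle arrays. All 9 NK genes tested stood lower, 8 of them without overlap (22.4% of all genes tested). By limma 5 were lower at an unadjusted p under 0.05 (2.47% of all genes). Klrk1, Klra8 and Klre1 of the same list lay below the filter level and were not tested. The median of the 9 was -0.34 against -0.023 over all genes tested. Leaving out the second mepenzolate array gave a median of -0.18, and leaving out the first gave -0.445. At 7 h the median was -0.09. For the difference between the times, 2 of the 9 genes, Gzma and Eomes, had an unadjusted p under 0.05 by limma, against 2.68% of all genes. Ccl5, a chemokine that NK and activated T cells store, read 9.06 and 8.78 against 9.73 and 9.52 (-0.70 ± 0.18). Which cells of the lung the transcripts of these genes came from was not tested.

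T cell genes went the other way. Cd3g, the gamma chain of the CD3 complex that carries the T cell receptor's signal, read 8.92 and 9.03 after mepenzolate against 8.40 and 8.43 after vehicle, a difference of 0.57 ± 0.10. Themis, needed for T cell selection in the thymus, read 6.80 and 6.80 against 6.34 and 6.44 (0.41 ± 0.10). The adaptor gene Lat read 7.86 and 7.87 against 7.57 and 7.53 (0.32 ± 0.10), and the costimulatory receptor gene Icos 7.16 and 6.97 against 6.87 and 6.59 (0.34 ± 0.12). The groups were separate in all 4 genes. Of 24 T cell genes 19 stood higher, 14 without overlap (14.2% of all genes tested), with a median of 0.14. By limma 6 were higher at an unadjusted p under 0.05 (1.54% of all genes). Cd247, the zeta chain, was the 1 gene lower without overlap (-0.15). With any 1 of the 4 arrays left out the T cell median lay between 0.12 and 0.20. At 7 h it was -0.09, with 7 of 24 genes higher. B and plasma cell genes had a median of 0.12 (7 of 11 higher), but it was -0.20 without the first vehicle array, in which Ms4a1 (CD20) read 8.05 against 9.004 in the second.

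Among dendritic cell genes, Flt3, the receptor for the growth factor of this lineage, read 6.40 and 6.52 against 6.76 and 6.67 (-0.26 ± 0.08). Zbtb46, a transcription factor of classical dendritic cells, read 7.10 and 7.17 against 7.39 and 7.31 (-0.22 ± 0.09), and Cd209a, a lectin receptor, 8.48 and 8.52 against 8.86 and 8.64 (-0.25 ± 0.10). The vehicle arrays were the higher pair in each. Of 12 genes 10 stood lower, 7 without overlap (22.4% of all genes tested). The median was -0.16, or -0.07 without the second vehicle array. H2-Eb1, a class II histocompatibility gene of the same list, was far from the rest because its first vehicle array read 7.66 while the other 3 arrays read 9.996 to 10.10.

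Neutrophil genes other than Padi4 stood mostly lower. The calprotectin subunit S100a8 read 8.71 and 8.74 against 9.19 and 9.06 (-0.40 ± 0.17), and Mmp9, the gelatinase of neutrophil granules, 8.43 and 8.42 against 8.92 and 8.80 (-0.43 ± 0.22). Both were lower in each mepenzolate array, opposite to Padi4. Of 15 genes 11 stood lower, 7 without overlap (22.4% of all genes tested), with a median of -0.19. That median was -0.06 without the first vehicle array and -0.26 without the second. At 7 h the neutrophil median was 0.18 and Padi4 stood at -1.09. Its difference between the times, 2.04 ± 0.28, had the smallest unadjusted p of all genes. Monocyte and macrophage genes had a median of -0.045 and alveolar macrophage genes -0.087, and both turned positive (0.077 and 0.018) without the second mepenzolate array. Within the former list the paralogues Gpr141b (-0.56 ± 0.12) and Gpr141 (0.27 ± 0.10) stood apart in opposite directions.

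**Figure D2:**
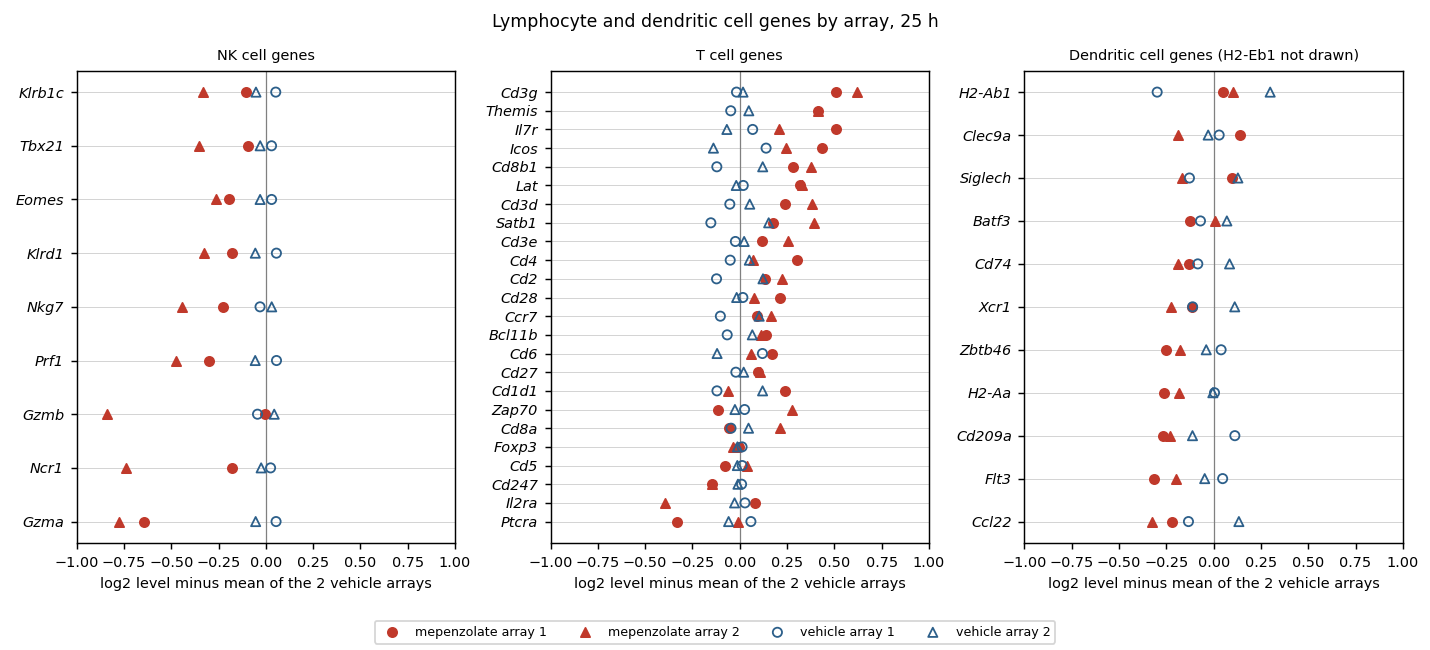
Levels of NK cell, T cell and dendritic cell genes per array at 25 h, as log2 level minus the mean of the 2 vehicle arrays; filled red marks are mepenzolate arrays, open blue marks vehicle arrays, circles array 1 and triangles array 2, and H2-Eb1 lies outside the axis and is not drawn. In 8 of 9 NK genes both red marks lie left of both blue marks, and in 14 of 24 T cell genes they lie right of them.

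Among secreted signals of inflammation, the chemokine genes Ccl17 and Ccl22, which attract T cells through CCR4 and are made by dendritic cells, stood at -0.36 ± 0.17 and -0.27 ± 0.14. Ccl17 read 7.51 and 7.18 against 7.69 and 7.73, and Ccl22 6.18 and 6.07 against 6.27 and 6.53. The mepenzolate arrays were lower in both genes, and at 7 h both stood higher, by 0.21 and 0.25. Of 12 CC chemokine genes 7 stood lower, a share near the 58.7% of all genes. Of these, 5 were without overlap (22.4% of all genes tested), and the median of the 12 was -0.11. Of 8 CXC genes 5 stood higher. Cxcl14 had the smallest unadjusted p of these, at 0.25 ± 0.09 with 9.78 and 9.94 against 9.64 and 9.58, while Cxcl13, a B cell attractant with the largest difference (0.45 ± 0.43), had overlapping groups, 8.94 and 7.76 against 8.27 and 7.54. The neutrophil chemokine gene Cxcl1 read 6.67 and 6.70 against 6.73 and 6.70, and Ccl2, which recruits monocytes, 6.53 and 6.67 against 6.73 and 6.70. Tnf read 6.63 and 6.86 against 6.71 and 6.72 (0.03 ± 0.15). The levels of these 3 genes lay near the array medians and the groups overlapped or nearly met. Of 14 cytokine genes 11 stood lower, with a median of -0.065 and 0 at an unadjusted p under 0.05.

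Other guanylate-binding protein genes did not share the size of the difference in Gbp4. Gbp11 stood at -0.25 ± 0.15 and Gbp7 at -0.08 ± 0.08, both without overlap, while the other 4 differed by -0.09 to 0.03. The 25 other interferon-induced genes were split, 12 higher and 13 lower, with a median of -0.004, which ran from -0.083 without the first mepenzolate array to 0.090 without the second and turned to 0.02 after median centring. Ifit1, an RNA-binding antiviral protein, stood at 0.29 ± 0.13 and Ifit3 of the same family at -0.28 ± 0.16. NF-kappaB, the transcription factor of inflammatory genes, showed no common direction in its 17 subunit, kinase and inhibitor genes (8 higher, 9 lower). Nfkbia, its inhibitor and target, read 9.81 and 9.78 against 9.83 and 9.67 (0.05 ± 0.09).

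Endothelial genes stood lower in more cases than the 58.7% of all genes, a difference in shares that was not tested. That share belongs to the values as deposited. After median centring of the arrays, more genes lay higher than lower without overlap. The median over all genes tested was -0.023. Sox18, a transcription factor of vascular and lymphatic development, read 9.40 and 9.50 after mepenzolate against 9.88 and 9.91 after vehicle (-0.45 ± 0.08). Procr, the endothelial receptor that speeds activation of protein C, read 7.15 and 7.40 against 7.86 and 7.80 (-0.55 ± 0.11), and Cdh13, T-cadherin, 8.39 and 8.44 against 8.85 and 8.81 (-0.42 ± 0.09). In these 3 genes the vehicle arrays lay close together and above both mepenzolate arrays. Tie1, a receptor kinase of the angiopoietin system, stood at -0.18 ± 0.08, and Plvap, which builds the diaphragms of fenestrae and caveolae, at -0.28 ± 0.12. Cdh5, found in nearly all endothelium, differed by -0.04 ± 0.08. Of 26 endothelial factor and receptor genes 20 stood lower, 10 without overlap (22.4% of all genes tested), with a median of -0.096. Of 31 surface genes 25 stood lower, 11 without overlap, with a median of -0.044. With 1 array left out in turn these medians ranged from -0.103 to -0.039 and from -0.098 to -0.016, the values nearest to zero arising on omission of a second array, that of mepenzolate for the factors and that of vehicle for the surface genes.

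Pericytes, the contractile cells on capillaries, are marked by Pdgfrb, a growth factor receptor that read 10.70 and 10.63 against 10.92 and 10.97 (-0.28 ± 0.08). Cox4i2, a respiratory subunit typical of lung pericytes and smooth muscle, read 9.26 and 9.17 against 9.62 and 9.41 (-0.30 ± 0.11). The vehicle arrays were higher in both. Of 8 pericyte genes 6 stood lower, 3 of them without overlap (22.4% of all genes tested), with a median of -0.089. That median was -0.03 when the second mepenzolate array was dropped and -0.176 when the first was. Smooth muscle contractile genes, the tissue on which airway muscarinic receptors act, stood higher in 6 of 9 cases with a median of 0.098 and 0 without overlap. The smooth muscle median ran from -0.04 without the second vehicle array to 0.22 without the second mepenzolate array, and was also below zero without the first mepenzolate array.

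Mesothelial genes, which mark the pleural lining, stood higher. Upk3b, a uroplakin, read 8.82 and 8.69 against 8.38 and 8.31 (0.41 ± 0.09), and Msln, mesothelin, 7.82 and 7.94 against 7.47 and 7.38 (0.45 ± 0.13). Aldh1a2, which makes retinoic acid, read 7.16 and 7.30 against 6.87 and 6.70 (0.45 ± 0.15), and Lrrn4 7.70 and 7.06 against 6.64 and 6.96 (0.58 ± 0.21). All 4 were higher in each mepenzolate array. Of 13 genes 9 stood higher, 7 of them without overlap (14.2% of all genes tested). The median of 0.20 lay between 0.15 and 0.23 with any 1 array left out. At 7 h, on separate arrays, 10 of the 13 stood higher with a median of 0.12. Relative to each gene's mean over all 8 arrays, the group median was 0.14 and 0.0002 in the 7 h mepenzolate arrays. It was -0.11 and -0.03 in the 7 h vehicle arrays. For the difference between the times 0 of the 13 had an unadjusted p under 0.05. With 2.68% of all genes at that threshold, 0 of 13 cannot show that the times agree. How much pleura each sample held was not recorded in the labels used here, and its part in the result was not tested. Of the other tissues that a lung sample can hold, fat genes stood higher in 4 of 5 cases (median 0.21, and -0.105 without the first mepenzolate array), and heart, nerve and red cell genes had medians of -0.024, 0.001 and -0.018, each of which changed sign with 1 array left out (heart genes from -0.16 to 0.18).

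**Figure D3:**
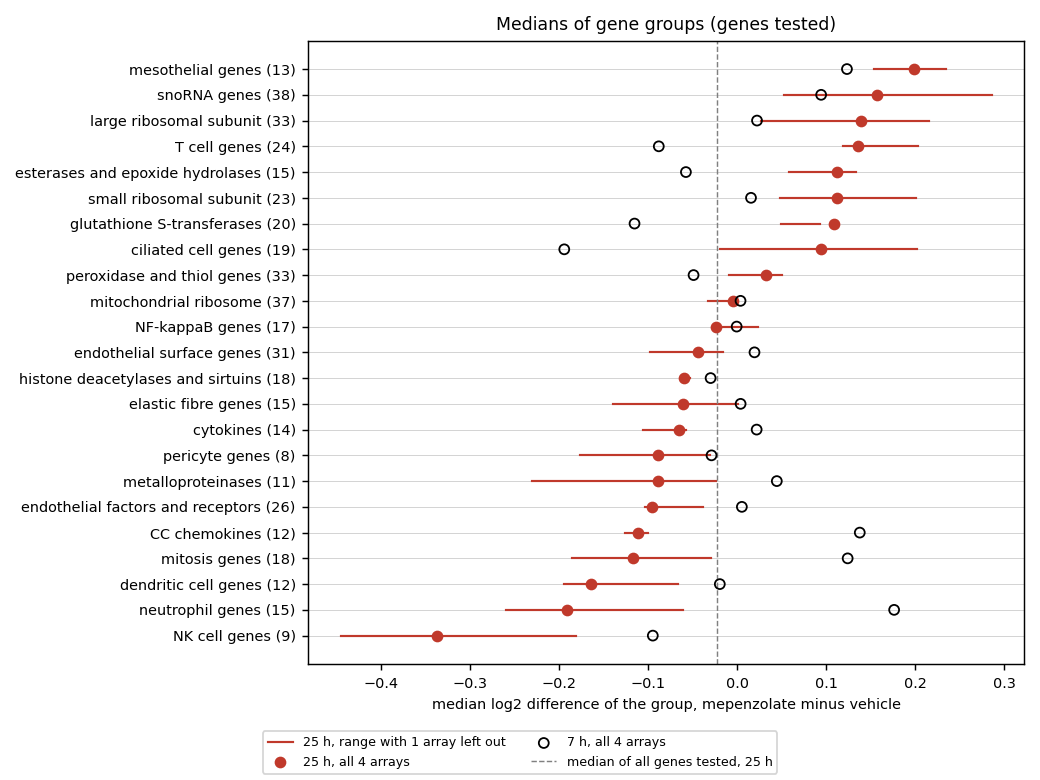
Median log2 difference, mepenzolate minus vehicle, of 23 gene groups with the number of genes tested in brackets; red points use all 4 arrays of 25 h, red lines span the medians with 1 array left out in turn, open circles are the 7 h comparison and the dashed line is the median of all genes tested. NK cell genes lie lowest at -0.34 and mesothelial genes highest at 0.20.

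Enzymes that clear foreign or oxidised compounds were led by Pon1, paraoxonase, an esterase that hydrolyses lactones and oxidised lipids, which read 10.84 and 10.97 after mepenzolate against 10.27 and 10.40 after vehicle (0.57 ± 0.11). Its relative Pon2 differed by 0.12 ± 0.08. Ces1g, a carboxylesterase, read 7.76 and 7.46 against 7.12 and 7.20 (0.45 ± 0.13), and Ephx1, microsomal epoxide hydrolase, 10.30 and 10.18 against 9.93 and 9.95 (0.30 ± 0.08). The groups were separate in these genes. Of 15 esterase and epoxide hydrolase genes 12 stood higher, 6 without overlap (14.2% of all genes tested). The median was 0.11, or 0.058 without the first vehicle array. At 7 h the median was -0.058, and 5 of the 15 had an unadjusted p under 0.05 for the difference between times, against 2.68% of all genes (400 of 14953). The list was chosen with earlier results of these data known, so that share is a description and no test of the list.

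Glutathione S-transferases join glutathione to reactive compounds. Gsto1 read 10.21 and 10.14 against 9.94 and 9.80 (0.31 ± 0.09), and Mgst2, a microsomal form, 7.24 and 7.53 against 7.10 and 6.89 (0.39 ± 0.12). Both were higher in each mepenzolate array. Of 20 genes 15 stood higher at 25 h (median 0.11) and 3 of 20 at 7 h (median -0.12). Without overlap at 25 h were 6 of the higher genes and 2 of the 5 lower ones. Of all genes tested, 14.2% were higher and 22.4% lower without overlap. Differences in the group ran from -0.48 to 0.40. Left out in turn, single arrays gave 25 h medians of 0.049 to 0.093, all below the value from 4 arrays. Cyp3a13, a cytochrome P450, read 6.40 and 6.47 against 5.86 and 5.73 (0.63 ± 0.14), levels at the dim end of the genes tested. The 17 cytochrome genes as a group were split, 9 higher and 8 lower, and Cyp2f2, the club cell form, differed by 0.14 ± 0.08.

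Enzymes that remove superoxide and peroxides showed small differences. Prdx1, a peroxiredoxin, read 11.36 and 11.56 against 11.10 and 11.05, or 0.38, with the groups separate. Its probe number falls among those of chromosome 16 genes, while Prdx1 lies on chromosome 4. Whether that probe also reads a copy of the gene was not tested. Sod1 and Sod2, the cytosolic and mitochondrial superoxide dismutases, differed by 0.01 ± 0.09 and 0.13 ± 0.11, and Cat, catalase, by 0.08 ± 0.09. Sod2 read 10.45 and 10.47 against 10.33 and 10.32, a small but complete separation. Nfe2l2, the transcription factor NRF2 of the antioxidant response, read 10.77 and 10.72 against 10.73 and 10.69 (0.04 ± 0.07). The peroxidase gene Gpx7 stood lower (-0.27 ± 0.09), as did Ggt5 of glutathione recycling (-0.30 ± 0.11), both with the groups separate. Of 33 peroxidase and thiol genes 21 stood higher and 12 lower. By limma 1 was higher and 2 were lower at an unadjusted p under 0.05 (1.54% and 2.47% of all genes). The median was 0.033, or -0.0087 without the first mepenzolate array. On the side of oxidant production, Cybb, the catalytic subunit of the phagocyte NADPH oxidase, read 10.73 and 10.72 against 10.74 and 10.72 (-0.01 ± 0.12). Its cytosolic partner Ncf1 read 8.22 and 8.10 against 8.27 and 8.30 (-0.12 ± 0.08) and the GTPase Rac2 9.59 and 9.60 against 9.71 and 9.82 (-0.17 ± 0.08). All 8 partner genes stood lower, 10 of 12 subunit genes in all. The median of the 12 was -0.053, against -0.023 over all genes tested, with 0 at an unadjusted p under 0.05.

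Hdac2, the histone deacetylase that corepresses inflammatory genes together with the glucocorticoid receptor, read 9.37 and 9.28 against 9.12 and 9.28 (0.12 ± 0.09). The second mepenzolate and second vehicle arrays were level. Of 18 deacetylase and sirtuin genes 14 stood lower, 8 without overlap (22.4% of all genes tested). Their median was -0.060 against -0.023 over all genes tested. Hdac10 was the 1 gene at an unadjusted p under 0.05, reading 7.48 and 7.42 against 7.61 and 7.67 (-0.19 ± 0.08), and Sirt1, which stood higher, differed by 0.12 ± 0.08.

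The receptors that mepenzolate blocks were measured as well. Chrm2, the M2 receptor, read 9.90 and 9.67 after mepenzolate against 9.44 and 9.43 after vehicle (0.35 ± 0.12). Both treated arrays were higher, the first by more, and the 7 h difference was -0.05. Chrm3, the M3 receptor, read 6.97 and 6.95 against 6.67 and 6.92 (0.17 ± 0.21), and Chrm1 7.50 and 7.74 against 7.72 and 7.59 (-0.03 ± 0.10). Of the 4 receptor genes tested 2 stood higher and 2 lower, from -0.10 to 0.35, and Chrm5 lay below the filter level. Ache, acetylcholinesterase, which ends the signal, read 5.85 and 5.999 against 6.20 and 6.07 (-0.21 ± 0.09). These levels lie near the filter level of log2 5.93. Over 27 genes of receptors, acetylcholine handling, G proteins and desensitisation 14 stood higher and 13 lower, with a median of 0.004 that lay between -0.024 and 0.035 with 1 array left out.

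**Figure D4:**
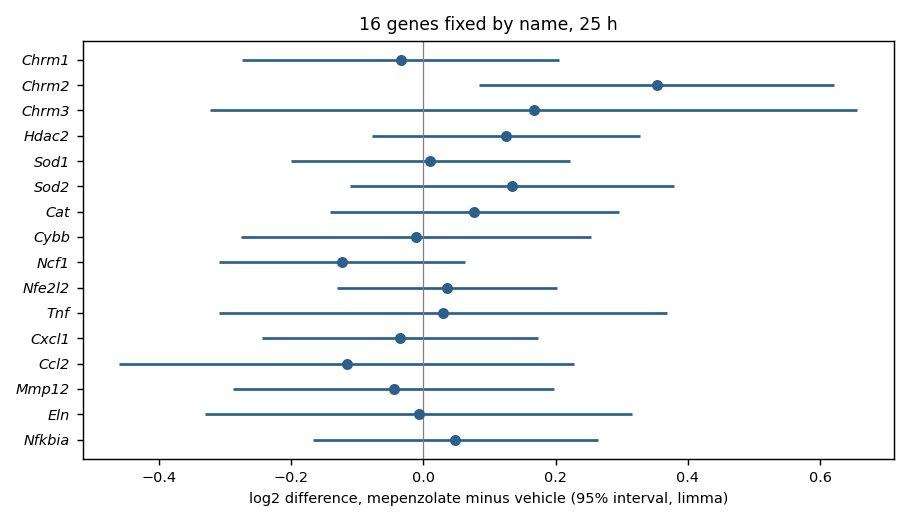
Log2 difference at 25 h, mepenzolate minus vehicle, with its 95% interval from limma, for 16 genes of muscarinic signalling, redox control, inflammation and matrix listed by name. Of these 16 intervals only that of Chrm2 lies wholly on one side of zero, before any adjustment, from 0.085 to 0.62.

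Ribosomal protein genes stood higher as a group, but mainly in the second mepenzolate array. Rps13 read 9.39 and 9.77 after mepenzolate against 8.88 and 9.06 after vehicle (0.61 ± 0.14), Rpl21 10.73 and 10.69 against 10.40 and 10.41 (0.30 ± 0.09), and Rps29 11.17 and 11.23 against 10.80 and 11.01 (0.29 ± 0.09). These 3 were higher in both mepenzolate arrays. Of 33 large subunit genes 30 stood higher (16 without overlap, median 0.14) and of 23 small subunit genes 20 (13 without overlap, median 0.11). Of all genes tested 14.2% were higher without overlap. Relative to each gene's mean over all 8 arrays, the large subunit median was 0.01 in the first mepenzolate array, 0.20 in the second, and -0.06 and -0.01 in the vehicle arrays. Without the second mepenzolate array the group medians were 0.027 and 0.048, and without the first 0.215 and 0.201. Genes of the mitochondrial ribosome were split, 18 higher and 19 lower. Copies and pseudogenes of ribosomal protein genes are many, and a probe may also bind these.

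The small nucleolar RNAs, which guide chemical modification of ribosomal RNA and often lie in introns of ribosomal protein genes, were likewise highest in the second mepenzolate array. Their 38 annotated genes were grouped by gene class after values had been seen. Of these 30 stood higher, 9 without overlap (14.2% of all genes tested), with a median of 0.16. The second mepenzolate array stood at 0.34, the first at 0.09, and the vehicle arrays at -0.01 and 0.12. Snord35a, in the Rpl13a gene, read 8.55 and 9.28 against 8.17 and 8.19, and Snord118, the U8 RNA needed for processing of large subunit rRNA, 7.60 and 8.42 against 7.07 and 7.25. In both genes the second mepenzolate array was clearly the highest. Snord73b, which lies within Rps3a1 and is outside that count because RefSeq classes it as an snRNA, read 9.85 and 10.25 against 8.85 and 9.32 (0.97 ± 0.25), and Rps3a1 itself differed by 0.17 ± 0.08. RNA quality figures per sample were not used here, and their part in this pattern was not tested.

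**Figure D5:**
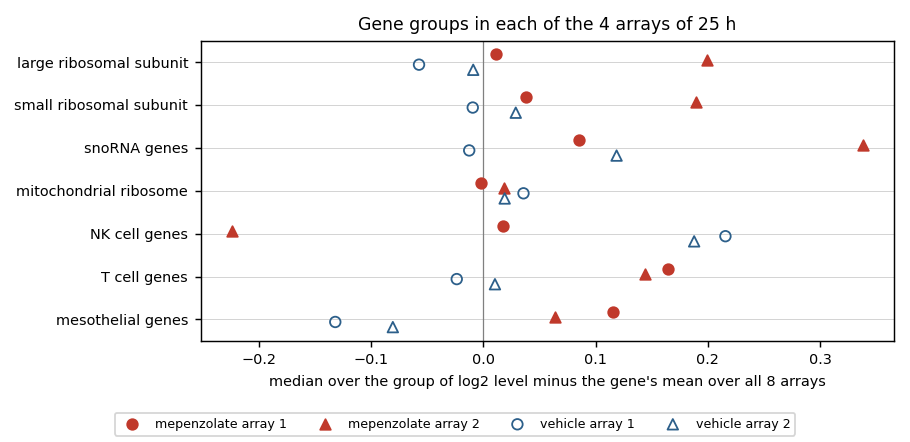
Median over each gene group of the log2 level minus the gene's own mean over all 8 arrays, for each array of 25 h; filled red marks are mepenzolate arrays, open blue marks vehicle arrays, circles array 1 and triangles array 2. For ribosomal protein and snoRNA genes the second mepenzolate array stands alone at 0.19 to 0.34, while for T cell and mesothelial genes the 2 mepenzolate arrays lie together.

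Respiratory chain genes had a median of 0.013, or -0.018 without the first mepenzolate array. Of 48 genes 28 stood higher, 12 without overlap (14.2% of all genes tested). Among them was Cox7b, a subunit of cytochrome c oxidase (0.36 ± 0.11). Its probe number falls among those of chromosome 1 genes, while Cox7b lies on the X chromosome. Whether that probe also reads a copy of the gene was not tested. The complex I gene Ndufs1 read 8.84 and 8.89 against 8.53 and 8.68. Mitosis genes stood lower in 17 of 18 cases at 25 h (median -0.12) and higher in 17 of 18 at 7 h (median 0.12). The mitotic kinase gene Plk1 read 6.79 and 7.16 against 7.35 and 7.20, and the proliferation marker Mki67 7.50 and 7.41 against 7.66 and 7.54. Both were lower in each mepenzolate array, but the first vehicle array was the highest in both. Without it the mitosis median was -0.03. For Mki67 the difference between the times was -0.49, and it was the 1 mitosis gene with an unadjusted p under 0.05 for it.

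Among epithelial genes at 25 h, ciliated cell genes stood higher in 17 of 19 cases (median 0.094), though 1 gene only, Rsph1 of the ciliary radial spoke, was without overlap, with 8.55 and 8.52 against 8.15 and 7.91. The median was -0.019 without the first mepenzolate array and 0.20 without the second. Club cell genes were split, 11 higher and 8 lower, 7 and 3 of them without overlap (14.2% and 22.4% of all genes tested). They ranged from -0.70 to the 0.78 of Scgb1c1. Scgb3a2 read 9.86 and 10.15 against 9.85 and 9.76, while Tff2, a trefoil peptide of mucus, read 7.45 and 8.14 against 8.32 and 8.62 (-0.67 ± 0.29). Alveolar type 2 and type 1 genes had medians of 0.006 and -0.035, which also changed sign with 1 array left out. At 7 h ciliated and club cell medians were -0.19 and -0.23.

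Genes set by the clock and by glucocorticoids had medians of -0.023 and 0.021 at 25 h, against -0.05 and -0.25 at 7 h. The clock value averages mepenzolate arrays that disagree, at -0.17 and -0.52 relative to each gene's mean over all 8 arrays, and it ran from -0.13 without the first to 0.096 without the second. The glucocorticoid median was -0.017 without the first mepenzolate array. Bhlhe41, a repressor of the clock, read 7.03 and 6.70 against 6.42 and 6.55 (0.38 ± 0.11). Tsc22d3, the glucocorticoid-induced leucine zipper, read 9.45 and 9.29 against 9.22 and 9.004 (0.26 ± 0.10), and Angptl4, an inhibitor of lipoprotein lipase, 7.20 and 7.28 against 7.71 and 7.57 (-0.40 ± 0.10). The groups were separate in all 3 genes. Among immediate early genes Fos read 7.24 and 7.32 against 7.07 and 6.87 (0.31 ± 0.12), and 12 of 18 stood higher.

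Proteases and matrix genes, which set the balance that fails in emphysema, gave 10 of 11 metalloproteinase genes lower, 4 without overlap (22.4% of all genes tested). At an unadjusted p under 0.05 by limma there were 0, and the median was -0.089. With the second mepenzolate array left out it was -0.02, and with the first left out -0.23. Elastase and cathepsin genes were split, 4 higher and 3 lower (median 0.002), as were protease inhibitors, 5 and 5 (median -0.003). Mmp12, macrophage elastase, read 7.12 and 7.08 against 7.08 and 7.21 (-0.05 ± 0.11). Of 15 elastic fibre genes 13 stood lower, with a median of -0.061 that was 0.001 without the second mepenzolate array. Collagen genes were split, 7 higher and 7 lower, with a median of -0.003. Eln, elastin, read 10.32 and 10.31 against 10.20 and 10.44 (-0.01 ± 0.14), and Lox, which crosslinks it, 9.999 and 9.86 against 10.29 and 10.10 (-0.27 ± 0.17).

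Some of the largest differences rested on 1 array. H2-Ea, a class II histocompatibility gene that RefSeq classes as a transcribed pseudogene, read 6.49 and 6.76 after mepenzolate. It read 7.08 in the first vehicle array and 11.35 in the second, so its difference of -2.59 had an error of 1.73. Gdpd3, a phospholipase D-like enzyme, read 5.97 and 5.82 against 9.02 and 6.12, and Ang5, an angiogenin-family ribonuclease, 8.65 and 8.72 against 5.41 and 8.62. D17H6S56E-5 read 6.55 and 6.41 against 6.57 and 8.37. In each of these genes a single vehicle array stood apart from the other 3. The vehicle arrays of 7 h also lay far apart in H2-Ea (6.33 and 11.78), Ang5 (8.97 and 4.81) and D17H6S56E-5 (6.47 and 8.76). For Gdpd3 they lay together, at 5.95 and 5.96. Gdpd3 stood at -3.13 without the second vehicle array, where its adjusted p by limma was 0.000187, because the array left in was the one at 9.02. Ctse, cathepsin E, was spread in both groups, with 9.23 and 8.42 against 8.18 and 6.56.

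The difference between the effects at 25 h and 7 h was tested in the same fit, and 0 of 14953 genes (0%) passed, with a smallest adjusted p of 1.00 and 400 genes (2.68%) at an unadjusted p under 0.05. Such genes included, after Padi4, Sdhaf4 (-0.60 ± 0.11), Cd3g (0.78 ± 0.15), Pon1 (0.78 ± 0.15), Themis (0.68 ± 0.14) and Gbp4 (-1.06 ± 0.22). In each of these 6 genes the sign of the difference between treatments was opposite at the 2 times, and none is shown to differ between them after adjustment.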

How the data were processed

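Per the labels, total RNA of lung tissue was hybridised to Affymetrix gene arrays after labelling with biotin. The authors deposited log2 expression values of 34760 probes, summarised with RMA per the submitters' processing notes. The version of RMA is not given in the sources used here. It subtracts background, brings arrays to one distribution and merges a transcript's probes, so dim genes show compressed differences. There is no read depth on arrays, and their number limits the precision.

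The platform annotation gave 21640 probes 1 gene symbol, 1321 several and left 11799 unnamed here. For 954 genes with several probes the brightest over all 8 arrays was taken. Genes at or above the 25th percentile of means were tested with limma (version 3.58.1, run under R 4.3.3) on all 8 arrays, fitting a mean for each of the 4 groups and a shared spread (4 residual degrees of freedom), adjusted by the Benjamini-Hochberg method. The procedure was tested on simulated data.

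Genes were named by rule: the 12 smallest unadjusted p-values and 10 widest gaps between groups in each direction among genes without overlap, 6 large differences whose arrays disagree, 16 genes fixed by name, and leading members of 40 gene lists (1045 entries, 880 tested). Others named were list members needed to describe a group, and 4 snoRNA genes. The members and lists were chosen with earlier results of these data known. Lists are described by counts and medians, with no set test. Alternatives were a replicate block, other filters, quantile normalization, median centring, the 25 h arrays alone, the mean of a gene's probes, an intensity trend with robust spread, and each array left out.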

Additional observations from a re-analysis of the deposited data

Results flagged for a closer look

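Outside the genes tested, 1 probe that carries several gene symbols, and so is not named, read 5.52 and 5.77 in the mepenzolate arrays against 3.04 and 3.03 in the vehicle arrays of 25 h. It was singled out because it lies outside the main measurement and stood above the controls. Its difference of 2.61 ± 0.11 had an adjusted p of 0.00319 by limma over all 34760 probes without a filter, a setting chosen after seeing the data, and its difference at 7 h was 0.06. The vehicle levels are among the dimmest on the arrays, and the mepenzolate levels lie below the gene filter at log2 5.93. The part of these low levels in this result was not tested.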

How the results depend on the processing

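At 25 h, 0 genes passed limma at an adjusted p under 0.05 in 11 of 14 settings. In the other settings the count was 1 with all probes kept (chosen after seeing the data), 1 without the second vehicle array (Gdpd3) and 1 with a replicate block (Snord73b, 0.97, adjusted p = 0.0255). Deviations of arrays of equal number correlated at r = -0.013 between the 25 h groups and at -0.021 to 0.396 over the 6 pairs of groups, 3 of them above 0.1. The labels used here tie the numbers to no batch, and with 2 arrays a group the pairing is not settled. The difference between times gave 2 probes with all probes kept and 0 to 1 genes with an array left out. Its count at an unadjusted p under 0.05 was 1129 with all probes, and 271 to 640 with an array left out. At that threshold, genes higher numbered 826 with all probes, 359 with median centring, 384 with quantile normalization and 131 to 370 with an array left out. Genes lower numbered 872, 243, 384 and 162 to 703 in the same settings. Without overlap, genes higher numbered 5223 with all probes and 3586 to 5502 with an array left out, where 1 array faces 2 and overlap is rarer by construction. Genes lower numbered 7619, 1995 with the stricter filter (fewer genes tested), and 5310 to 6926. Some small differences changed sign, and the cause was not tested. Cxcl1 stood at 0.0119 with quantile normalization, and with median centring Cybb stood at 0.0117 and Eln at 0.0163. Ranges with single arrays left out that cross zero were those of Cat from -0.0381 to 0.192, Chrm1 from -0.154 to 0.0846, Cpsf6 from -0.0472 to 0.0966, Cxcl13 from -0.141 to 1.04, Eln from -0.124 to 0.11, Mmp12 from -0.107 to 0.0171, Ms4a1 from -0.198 to 0.753, Nfkbia from -0.0326 to 0.129, Sod1 from -0.039 to 0.0606 and Tnf from -0.0848 to 0.145. The precision is limited by 2 arrays per group.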
